A study of Mus musculus with 16 samples.

Results

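Venous endothelial genes were followed across young and aged mouse lung ECs (endothelial cells, which line blood vessels), with and without bleomycin injury. The group holds 6 genes, Nr2f2, Ephb4, Slc6a2, Bst1, Prss23 and Amigo2, taken by name from the 43346 genes of the table. All mice were FVB and carried a Col1a1-GFP reporter, a transgene in which a collagen promoter makes fibroblast-like cells fluoresce. ECs were sorted as CD31+, CD45-, EpCAM- and GFP- cells, a gate set against leukocytes, epithelium and collagen-producing cells that leaves all kinds of vessel together. The young animals were 2 months of age and the aged ones 18 months. Sham mice received PBS into the trachea, Bleo mice received about 1 U/kg of bleomycin, and ECs were collected 30 days later. Of the 16 libraries, 5 were from Young Sham mice, 4 from Young Bleo, 3 from Aged Sham and 4 from Aged Bleo mice, and they are called below by the numbers in their titles. The labels do not tie libraries to animals, but the study describes its chromatin samples as single mice and took the RNA from those lungs.

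Veins carry blood away from the capillary bed, and their endothelium is set apart from arterial endothelium by its own genes. The nuclear receptor COUP-TFII, the product of Nr2f2, restrains Notch signalling and thereby arterial genes in veins. EPHB4, a receptor tyrosine kinase of venous ECs, binds ephrin-B2 on arterial ECs. In the lung, arteries and veins are joined by a capillary bed of general capillary cells and of aerocytes, the cells of gas exchange. Slc6a2 codes for the transporter that removes noradrenaline from the circulation and from synapses. Bst1, also called CD157, is an enzyme of the cell surface that uses NAD. Prss23 codes for a secreted serine protease, and Amigo2 for an adhesion protein of the cell surface.

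The promoters of Prss23 and Amigo2 are shown because the counts of these genes varied together from library to library, as described below. Of the 6 members 4 were found in the RefSeq promoter table (GRCm38.p6): Nr2f2, Ephb4, Prss23 and Amigo2. The 250 bases before the start site are given 5′ to 3′ on the gene's own strand, and the capitals mark the GC box GGGCGG on either strand, a motif chosen after the sequences were seen. Prss23 is at chr7:89517587-89517836 on the minus strand, and Amigo2 at chr15:97247288-97247537 on the minus strand. The table holds 7 windows for Prss23, and the one shown, whose start site matches that of the deposited gene, is the one counted here.
Prss23: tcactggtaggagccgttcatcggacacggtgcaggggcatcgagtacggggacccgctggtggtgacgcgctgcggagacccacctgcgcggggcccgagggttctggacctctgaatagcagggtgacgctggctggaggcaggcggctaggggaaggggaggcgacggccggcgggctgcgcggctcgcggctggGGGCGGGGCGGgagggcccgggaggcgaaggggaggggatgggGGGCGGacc
Amigo2: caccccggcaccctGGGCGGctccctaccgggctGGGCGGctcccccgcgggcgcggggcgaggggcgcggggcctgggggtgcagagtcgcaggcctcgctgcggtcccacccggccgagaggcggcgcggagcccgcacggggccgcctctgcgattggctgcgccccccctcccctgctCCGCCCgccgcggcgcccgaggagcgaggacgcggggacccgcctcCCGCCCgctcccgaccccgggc
The GC box was found 3 times in the Prss23 promoter, with a pair of overlapping matches, and 4 times in that of Amigo2. It also occurred 4 times in the Ephb4 promoter and 0 times in that of Nr2f2. Of all 32851 promoter windows of this length in the table, 32.7% held it. The GC content was 74.4% for Prss23, 84% for Amigo2, 64% for Ephb4 and 50% for Nr2f2, beside a median of 52.4% over all windows. Searched on both strands, the ETS core (AGGAAG or CGGAAG) was found 1 time, in Nr2f2, and in 39.2% of all windows. The nuclear receptor motif AGGTCA (14% of all windows), the SOX motif ACAATG or ACAAAG (25.2%) and the RBPJ motif TGGGAA (21.6%) were in none of these 4 windows. A match describes the letters only.

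Total counts were 20.9 to 71.0 mega-counts per library. All 8 pan-endothelial markers, among them Pecam1, Cdh5 and Erg, were detected in every library, with a summed normalized count of 439878 to 701346. Aged Sham replicate 14 stood apart: the 5 platelet markers summed to 385920 normalized counts there and to 7428 to 99488 in the other libraries, so results that rest on it are also given without it. Leukocyte markers moved with both injury and age. Their sum over 10 genes was 3252 to 5318 in Young Sham, 17770 to 53966 in Young Bleo, 7546 to 23226 in Aged Sham and 25738 to 172229 in Aged Bleo. At least 1 Young Sham library was at 0 for Ptprc (CD45), Itgam, S100a8, S100a9, Cd3e and the gene listed as Emr1, and no aged library was at 0 for any of the 10. Epithelial markers (7 genes) summed to 16041 to 89133 and fibroblast markers (7 genes) to 3847 to 16620, so transcripts of the cells gated against were present in every group. A gene was called at a DESeq2 adjusted p of at most 0.05 and a log2 fold change of at least 0.5 in either direction. Where single groups are said below not to overlap, the share of all genes that separated in this way was not counted. That share was counted only for all aged against all young libraries. In sorted bulk samples, fewer cells of a type and less RNA per cell cannot be told apart.

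All 6 members were counted in every library and all were tested in every comparison. Per length of gene, as the mean FPKM (fragments per length of gene and per library size) over the 16 libraries, Prss23 was the highest at 42.4, followed by Ephb4 at 27.7 and Amigo2 at 14.1. Slc6a2 (2.31), Bst1 (1.42) and Nr2f2 (1.38) were far lower. Across libraries the FPKM of Prss23 (28.8 to 80.7) overlapped that of Ephb4 (12.6 to 43.5), which overlapped that of Amigo2 (7.79 to 25.6). Those of Slc6a2 (0.802 to 4.98), Bst1 (0.698 to 2.35) and Nr2f2 (0.981 to 1.79) overlapped each other and were lower than any value of Amigo2. All values below are read counts normalized by DESeq2 unless FPKM is named.

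**Figure D1:**
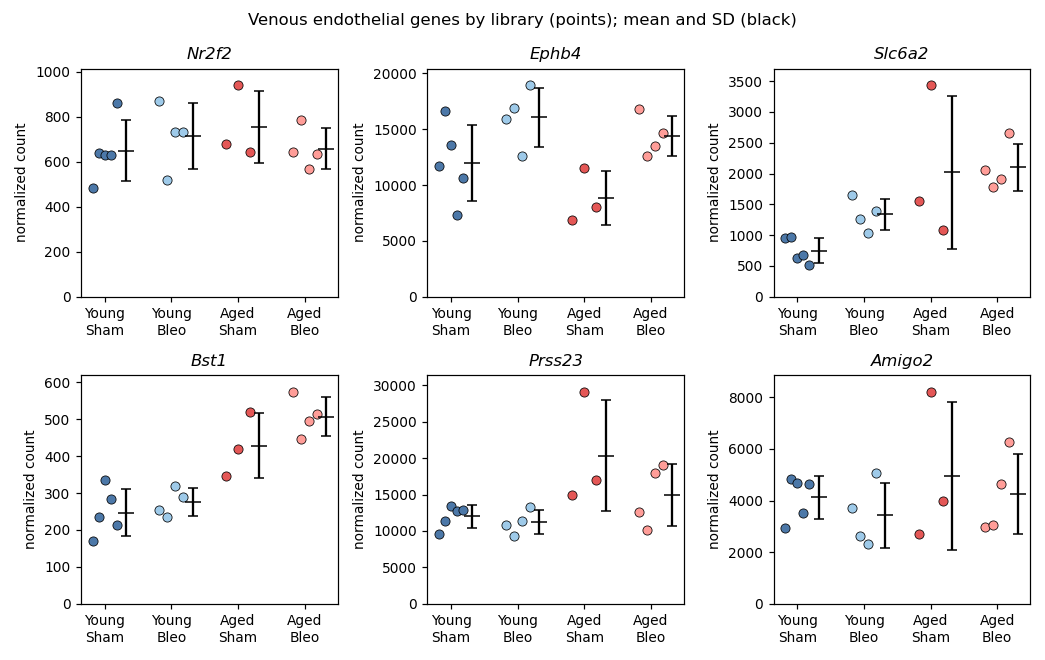
Normalized read count (vertical axis, from 0) of the 6 venous genes in each of the 16 libraries, by group, with the group mean and SD in black. All aged libraries lie above all young ones for Bst1 (346 to 573 against 171 to 334), and Aged Sham replicate 14 is the highest library for Slc6a2, Prss23, Amigo2 and Nr2f2.

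The effect of age without injury was asked first, as Aged Sham against Young Sham. Of the 6 members 3 were called, all higher in Aged Sham: Slc6a2 by 2.7-fold, Bst1 by 1.75-fold and Prss23 by 1.69-fold. Over all 18515 genes tested, 3.36% were called and 2.24% were called higher. The median log2 fold change of the members was 0.51, beside 0.021 over all genes, and 0.22 beside 0.0018 without Aged Sham replicate 14. Without Aged Sham replicate 14, 0 of the 6 members were called by DESeq2: the log2 fold changes of Slc6a2 and Prss23 were then smaller, while that of Bst1 stayed about the same with 2 libraries left in its group. Over the 7 other settings with all libraries, Slc6a2 was called in 4, Bst1 in 2 and Prss23 in 2.

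Slc6a2 (ENSMUSG00000055368, mm10, chromosome 8, 92960079 to 93001667) had normalized counts of 950, 966, 636, 684 and 509 in Young Sham replicates 21 to 25 and of 1551, 3429 and 1087 in Aged Sham replicates 13, 14 and 15. Every Aged Sham library was above every Young Sham library, though the share of all genes doing so was not counted. Replicate 14 stood far above the other 2 of its group. The log2 fold change was 1.43 (SE 0.32, DESeq2 adjusted p = 0.0011; edgeR 0.035). Without replicate 14 it was 0.81 and did not pass. Among the 7 other monoamine genes, Slc18a2, the vesicular monoamine transporter, rose by 1.65 on the log2 scale (adjusted p = 0.016) and 6 did not pass. Platelets carry Slc18a2 as well, and without replicate 14 it was at 0.54 (adjusted p = 0.555).

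Bst1 (ENSMUSG00000029082, chromosome 5, 43818886 to 43843247) had 171, 234, 334, 285 and 212 normalized counts in Young Sham and 346, 419 and 521 in Aged Sham. The groups did not overlap. Bst1 rose by 0.81 on the log2 scale (SE 0.221, DESeq2 adjusted p = 0.013; edgeR 0.107), and without replicate 14 it was 0.83 with an adjusted p of 0.067. The call was also lost without Aged Sham replicate 15, where the log2 fold change was 0.64 and the adjusted p 0.133. Its related NAD enzyme Cd38 fell by 0.72 (adjusted p = 0.024), with the same value without replicate 14 but an adjusted p of 0.112, and the other 6 NAD enzymes tested of a list of 8 did not pass.

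Prss23 (ENSMUSG00000039405, chromosome 7, 89507785 to 89517586) had 9587, 11381, 13373, 12745 and 12829 normalized counts in Young Sham and 14891, 29045 and 16988 in Aged Sham. The groups did not overlap. The log2 fold change was 0.76 (SE 0.243) with a DESeq2 adjusted p of 0.049, next to the threshold, and edgeR gave 0.143. The call was lost without Aged Sham replicate 14 and without any of the 5 Young Sham libraries, and kept in 2 of 8 fits that left out a single library. Without replicate 14 the log2 fold change was 0.41 (adjusted p = 0.454). The antisense gene Prss23os lies within Prss23 over 1362 bases, and since the strand setting of the counting is not stated, its reads cannot be told apart from those of Prss23.

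The other 3 members did not pass in Aged Sham against Young Sham. Ephb4 had a log2 fold change of -0.44 (95% interval -0.91 to 0.028), Nr2f2 of 0.22 (-0.21 to 0.65) and Amigo2 of 0.27 (-0.43 to 0.96). For Amigo2 the sign turned without replicate 14, to -0.30. These intervals allow changes of either sign for all 3 genes.

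Age was next compared after injury, as Aged Bleo against Young Bleo. Bst1 was the 1 member called, 1.84-fold higher in Aged Bleo, where 0.99% of 18986 genes were called and 0.585% were called higher. Bst1 had 255, 236, 320 and 290 normalized counts in Young Bleo replicates 17 to 20 and 573, 447, 496 and 513 in Aged Bleo replicates 1, 2, 3 and 5. Every Aged Bleo library was above every Young Bleo library. The log2 fold change was 0.88 (SE 0.211, DESeq2 adjusted p = 0.0069; edgeR 0.219), and the call was lost in 1 of 8 fits that left out a library, that without Young Bleo replicate 18. It was called in 3 of the 7 other settings.

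Slc6a2 had 1650, 1260, 1040 and 1397 normalized counts in Young Bleo and 2065, 1786, 1909 and 2653 in Aged Bleo. These groups did not overlap either, a separation whose share over all genes was not counted. The log2 fold change of 0.65 (SE 0.309) did not pass (DESeq2 adjusted p = 0.416). Prss23 had 10869, 9288, 11332 and 13354 in Young Bleo and 12584, 10168, 17970 and 19038 in Aged Bleo. Its groups overlapped, with a log2 fold change of 0.41 (95% interval -0.047 to 0.88). For Nr2f2, Ephb4 and Amigo2 the log2 fold changes were -0.12, -0.16 and 0.31, and none passed.

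**Figure D2:**
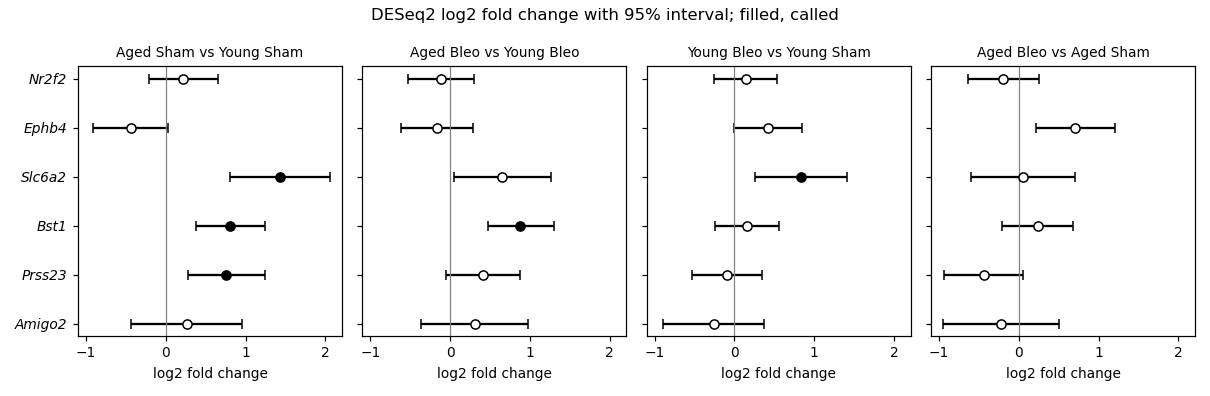
DESeq2 log2 fold change (horizontal axis) of each member with its 95% interval in 4 comparisons, with filled points for called genes. Bst1 was called in both age comparisons (0.81 and 0.88), Slc6a2 and Prss23 in sham mice, and Slc6a2 in young mice after bleomycin (0.83).

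A comparison of all aged with all young libraries, as the mean of the sham and the bleomycin difference, was added after the data were seen. Of the 6 members 3 were called, all higher with age: Slc6a2 by 2.06-fold, Bst1 by 1.8-fold and Prss23 by 1.5-fold. Over all genes 3.67% were called and 2.44% were called higher. The median log2 fold change was 0.44 for the members and 0.022 for all genes. Without Aged Sham replicate 14 it was 0.21 for the members and 0.011 for all genes, and 2 members were called, Slc6a2 and Bst1. This comparison reuses the libraries of the preceding ones and is no separate evidence.

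Bst1 was higher in all 7 aged libraries, at 346 to 573 normalized counts, than in any of the 9 young libraries, at 171 to 334. Of 18986 genes 0.263% had every aged library above every young one. Its log2 fold change was 0.85 (SE 0.153, DESeq2 adjusted p = 8.6e-06; edgeR 0.014). The call held without any single library (16 of 16 fits, 0.76 to 0.91), and without Aged Sham replicate 14 the log2 fold change was 0.86. It was called in 5 of the 6 other settings, and on log2(FPKM + 1) the value of 0.44 was under the threshold on size. Bst1 shares 2754 bases with Fbxl5, a gene on the other strand with 1003 to 4540 counts, and the part of those reads in its value was not tested.

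For Slc6a2 the range was 1087 to 3429 normalized counts in aged and 509 to 1650 in young libraries, with 5 of 7 aged libraries above the highest young one. The log2 fold change was 1.04 (SE 0.222, DESeq2 adjusted p = 0.00033; edgeR 0.022). It was called in 16 of 16 fits without a single library, with 0.73 as the lowest value, reached without Aged Sham replicate 14, and in 5 of 6 other settings (0.60 on log2(FPKM + 1) did not pass). For Prss23, 5 of 7 aged libraries (10168 to 29045) were above the highest young library (9288 to 13373). Its log2 fold change was 0.59 (SE 0.169, DESeq2 adjusted p = 0.018; edgeR 0.086), and the call was lost without Aged Sham replicate 14 (0.41, adjusted p = 0.122), Aged Bleo replicate 3, Aged Bleo replicate 5 or Young Bleo replicate 18 and in 4 of the 6 other settings.

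Leukocyte markers were called higher with age in the same comparison for 4 of 10 genes and lower for none, and without Aged Sham replicate 14 for 3 of the 9 then tested. Bst1 is also known from myeloid cells. Beside the leukocyte sums given above, Bst1 was 171 to 334 in Young Sham, 236 to 320 in Young Bleo, 346 to 521 in Aged Sham and 447 to 573 in Aged Bleo. Within groups the correlation of Bst1 with the leukocyte sum was -0.05 over the 16 libraries, and -0.18 without 2 of them. For Slc6a2 it was 0.28, and 0.56 without 2 of them. Lyz2 had by far the most counts of the 10 genes, with means of 4205 in Young Sham and 80903 in Aged Bleo. These correlations therefore describe mostly Lyz2. Platelet markers were called higher with age for 3 of 5 genes, and for 0 of 5 without Aged Sham replicate 14. Mural cell markers were called lower for 3 of 7, and for 2 of 7 without that replicate. The sum of the 7 mural markers was 7157 to 17804 in Young Sham, 2934 to 6798 in Young Bleo, 4061 to 7651 in Aged Sham and 1957 to 3069 in Aged Bleo, with none at 0. Of 5 mesothelial markers 3 were called higher in Aged Sham against Young Sham, with sums of 1129 to 3532 against 120 to 521. Of 7 fibroblast markers 1 was called higher and 3 lower in the averaged age comparison (1 and 1 without that replicate), with sums of 3847 to 6981 in Aged Bleo and 6763 to 16620 in the other groups. The part of these cells in the age differences was not tested.

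The response to bleomycin was compared in young mice as Young Bleo against Young Sham. Slc6a2 was the 1 member called, 1.78-fold higher in Young Bleo. Over all genes 13.9% were called, so 1 of 6 members is near the background, and 7.57% were called higher. The median log2 fold change of the members was 0.15. For Slc6a2 all 4 Young Bleo libraries (1040 to 1650) lay above all 5 Young Sham libraries (509 to 966). This rise was 0.83 on the log2 scale (SE 0.294, DESeq2 adjusted p = 0.033; edgeR 0.068), and the call was kept in 3 of 9 fits that left out a library and in 3 of 7 other settings. In the same comparison 4 of 5 mesothelial markers (sums of 1387 to 3893 in Young Bleo) and 5 of 10 leukocyte markers were called higher, and their part in the Slc6a2 value was not tested.

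Ephb4 (ENSMUSG00000029710, chromosome 5, 137350109 to 137378669) had 11688, 16597, 13615, 7337 and 10675 normalized counts in Young Sham and 15879, 16882, 12594 and 18921 in Young Bleo. The groups overlapped, and the log2 fold change of 0.42 (SE 0.219) did not pass (DESeq2 adjusted p = 0.194). The other members had log2 fold changes of 0.14 (Nr2f2), 0.16 (Bst1), -0.096 (Prss23) and -0.26 (Amigo2).

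In aged mice, Aged Bleo against Aged Sham, 0 of the 6 members were called by DESeq2 and 0 by edgeR, while 5.85% of all genes were called by DESeq2. At an unadjusted p under 0.05 there was 1 member, Ephb4. It had 6892, 11536 and 8054 normalized counts in Aged Sham and 16836, 12603, 13499 and 14633 in Aged Bleo. Every Aged Bleo library was above every Aged Sham library. On the log2 scale it was higher by 0.71 (SE 0.25, DESeq2 adjusted p = 0.067), and without Aged Sham replicate 14 it was 0.95 with an adjusted p of 0.01. Slc6a2 differed by 0.056 (95% interval -0.60 to 0.71) with all libraries and by 0.68 (adjusted p = 0.138) without that replicate.

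Whether aged and young mice responded differently to bleomycin was tested directly, as the aged response minus the young one. It called 0 of the 6 members, 0 at an unadjusted p under 0.05 and 0 with edgeR, while 0.378% of 20380 genes were called. The estimate farthest from 0 was that of Slc6a2, -0.78 (SE 0.445, 95% interval -1.65 to 0.093), and without Aged Sham replicate 14 it was -0.16. Thus a response of Slc6a2 that passed in young and not in aged mice was not shown to differ between them.

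When the responses of young and aged mice were averaged, a comparison also added after the data were seen, Ephb4 was the 1 member called. Its log2 fold change was 0.56 (SE 0.166, DESeq2 adjusted p = 0.0059; edgeR 0.024), a rise of 1.48-fold. Over all genes 15.4% were called, a share close to 1 of 6 members, and 8.74% were called higher. The call was lost without Aged Sham replicate 13 or Young Sham replicate 24, and kept in the 6 other settings. In the same comparison 6 of 10 leukocyte markers were called higher, and 5 of 5 platelet and 4 of 7 mural markers lower. Without Aged Sham replicate 14, 7 of the 9 leukocyte markers then tested were higher, and 3 of 5 platelet and 4 of 7 mural markers lower. The part of these cells in the Ephb4 value was not tested. The 8 bleomycin libraries spanned 12594 to 18921 normalized counts and the 8 sham libraries 6892 to 16597, so the ranges overlapped, and 3 bleomycin libraries exceeded the highest sham library. Slc6a2 was called as well when Aged Sham replicate 14 was left out (log2 fold change 0.75), against 0.45 with it (adjusted p = 0.150).

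The last comparison was between groups that differ in both age and injury. In Aged Bleo against Young Sham 2 of 6 members were called, both higher, where 9.73% of all genes were called and 6.58% were called higher. Slc6a2 rose by 1.49 (SE 0.294, DESeq2 adjusted p = 2.8e-05; edgeR 0.0068), from 749 ± 201 (SD, n = 5) to 2103 ± 384 normalized counts (SD, n = 4). Bst1 rose by 1.05 (SE 0.201, DESeq2 adjusted p = 1.6e-05; edgeR 0.0081), from 247 ± 63.8 (SD, n = 5) to 507 ± 51.9 (SD, n = 4). Both were called in 9 of 9 fits without a library and in all 7 other settings tried. In the same comparison 6 of 10 leukocyte markers (median log2 fold change 4.11) and 3 of 5 mesothelial markers were called higher, and 6 of 7 mural (median -2.25) and 4 of 7 fibroblast markers lower, and their part was not tested. Across the 4 groups Slc6a2 averaged 2022 ± 1240 normalized counts in Aged Sham (SD, n = 3), and Young Bleo had a mean of 1337 ± 255 (SD, n = 4), so the place of Aged Sham among the groups above Young Sham is not settled beyond its spread.

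Nr2f2 (ENSMUSG00000030551, chromosome 7, 70351946 to 70366735), the transcription factor of the group, was called in none of the 8 comparisons. Its normalized counts were 482, 641, 632, 631 and 863 in Young Sham, 871, 518, 734 and 733 in Young Bleo, 681, 939 and 645 in Aged Sham, and 645, 784, 569 and 636 in Aged Bleo. The highest library was only 1.95 times the lowest, and the 4 groups overlapped one another. The mean age difference was 0.05 on the log2 scale, with a 95% interval of -0.25 to 0.35, and the mean bleomycin difference was -0.031 (-0.33 to 0.27). Its close relative Nr2f1 fell in Young Bleo against Young Sham by 1.68 (DESeq2 adjusted p = 0.015; edgeR 0.068), the 1 of 4 related nuclear receptors that was called there. Nr2f1 was low, at means of 74.8 normalized counts in Young Sham and 23.3 in Young Bleo. Nr2f2 is also active in lymphatic ECs, and the sum of 7 lymphatic genes was 71299 to 158064 in Young Bleo, 32919 to 45275 in Young Sham, 39031 to 45074 in Aged Sham and 41713 to 67222 in Aged Bleo. Their part in the Nr2f2 values was not tested.

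Amigo2 (ENSMUSG00000048218, chromosome 15, 97244074 to 97247287) was also called in none of the comparisons. It had 2916, 4833, 4671, 3533 and 4643 normalized counts in Young Sham, 3714, 2609, 2316 and 5077 in Young Bleo, 2686, 8196 and 3987 in Aged Sham, and 2983, 3069, 4660 and 6279 in Aged Bleo. The 4 groups overlapped one another, and its interval for the mean age difference ran from -0.20 to 0.77. Of its relatives, Amigo3 fell in Aged Sham against Young Sham by 2.14 (DESeq2 adjusted p = 0.042), with -2.05 and an adjusted p of 0.180 without replicate 14, and Amigo1 was not called. Amigo3 was low, at means of 105 normalized counts in Young Sham and 23.6 in Aged Sham.

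Amigo2 and Prss23 moved together between libraries. After the group means were removed, their log2 values had a Pearson correlation of 0.86 (Spearman 0.80) over the 16 libraries, and 0.82 without the 2 libraries farthest from the median of Prss23. The other 14 of the 15 pairs of members had values from -0.29 to 0.56. These are descriptions over libraries that share depth, sort and composition. Both genes also followed the platelet marker sum within groups, Prss23 with a correlation of 0.72 and Amigo2 with 0.69, as did Slc6a2 with 0.61. Of the 17 lists compared with each member the platelet sum was not the only one with such values: Amigo2 was at 0.70 with the other venous genes and at 0.67 with the ephrin-B pathway, and Ephb4 was at 0.64 and 0.80 with the same lists. Without the 2 libraries farthest from the median of the list sum, the platelet values were 0.68 for Prss23, 0.57 for Amigo2 and 0.62 for Slc6a2, those of Amigo2 with the other lists were 0.46 and 0.43, and those of Ephb4 were 0.54 and 0.78. With the platelet sum, Bst1 was at -0.06, Ephb4 at 0.13 and Nr2f2 at 0.21. In each of the 16 libraries all 5 platelet markers, such as Pf4 and Ppbp, were above 0, and the part of platelets in these values was not tested.

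**Figure D3:**
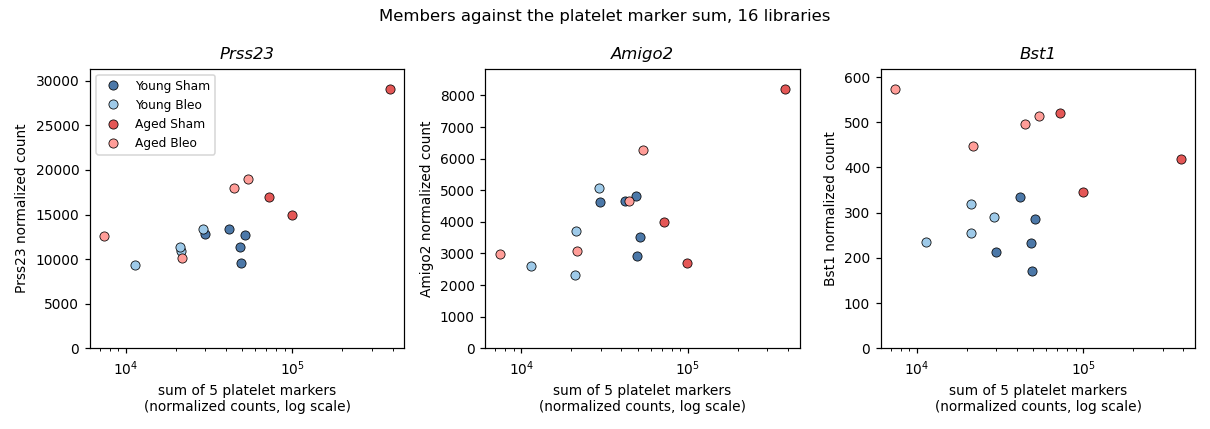
Normalized count of Prss23, Amigo2 and Bst1 (vertical axes, from 0) against the summed normalized count of 5 platelet markers (horizontal axis, log scale), with 1 point per library coloured by group. Aged Sham replicate 14, at a sum of 385920, has the highest Prss23 (29045) and Amigo2 (8196), while its Bst1 (419) lies within the range of the other aged libraries.

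The genes most like each member over the 16 libraries were sought among 13773 genes by the correlation of log2 normalized counts. Prss23 was closest to its own antisense gene Prss23os (0.97), then to Ptk2b and Ip6k3 (both 0.90). Amigo2 was closest to Atp2c1 (0.89), Thbs1 (0.88) and Per2 (0.87). Slc6a2 was closest to Pcp4l1 (0.90), Tnfaip8l2 (0.89) and Laptm5 (0.87). Ephb4 was closest to Sema4c, Mta2 and Fyn (all 0.94), Bst1 to Gmfb (0.87), Mapkapk3 and Naa50 (both 0.83), and Nr2f2 to Bach1 (0.88), Gm26908 (0.79) and Rc3h2 (0.76). These values include the differences between groups. With the group means removed they were 0.56, 0.56 and 0.49 for Bst1 and 0.77, 0.76 and 0.66 for Slc6a2. For the other members they were 0.79 to 0.97.

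Of a list of 14 other venous genes, 1 was called with age in sham mice, Ackr1, a chemokine receptor of venules. It rose by 2.00 on the log2 scale (DESeq2 adjusted p = 0.0081), and edgeR gave 0.088. Without Aged Sham replicate 14 it was at 1.31 (adjusted p = 0.258). None of the 14 was called in Aged Bleo against Young Bleo. With bleomycin in young mice 5 rose and 2 fell. Ackr1 rose by 3.64, Nrp2 by 1.95 and Selp, the adhesion molecule P-selectin, by 1.09, while Nr2f1 and the prostaglandin transporter Slco2a1 fell. In aged mice 3 rose with bleomycin, Ackr1 by 2.25, Nrp2 by 1.32 and Ackr3 by 1.03, and none fell. Under edgeR Selp (adjusted p = 0.068), Nr2f1 (0.068) and Vegfc (0.076), another of the 5 that rose, did not pass in young mice. Ackr1 (0.067) and Ackr3 (0.098) did not pass in aged mice. Nrp2 is also a lymphatic gene and Selp is also carried by platelets.

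Other kinds of lung ECs were set beside the members in the averaged comparisons. With age, 0 of 13 arterial genes were called and their median log2 fold change was -0.19, against 0.44 for the venous members and 0.26 for the other venous genes (0.21 and 0.12 without Aged Sham replicate 14). Of 7 general capillary genes 2 were called lower, Aplnr (-1.21) and Kit (-0.55), and the call of Kit did not hold under edgeR or without Aged Sham replicate 14. In Aged Sham against Young Sham 3 of the 7 were called lower, and 4 without that replicate. Kit was at -1.29 there (DESeq2 adjusted p = 3e-05; edgeR 0.019), and at -1.34 without that replicate (DESeq2 adjusted p = 0.00062). The aged response of Kit to bleomycin minus the young one was 1.47 (DESeq2 adjusted p = 0.012; edgeR 0.336). With bleomycin, again averaged, all 7 aerocyte genes were called lower (median -1.55) and 6 of 7 general capillary genes higher. Of 13 arterial genes 5 were called higher and 1 lower. In the same comparison 5 of 14 other venous genes were called higher and 1 lower (median 0.25), and 1 of 6 venous members was called higher. Efnb2, the ephrin-B2 ligand of EPHB4, was called in none of the comparisons. Of the 9 tested genes of the ephrin-B pathway, Ephb1 was the 1 called in Young Bleo against Young Sham, with a rise of 3.49.

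**Figure D4:**
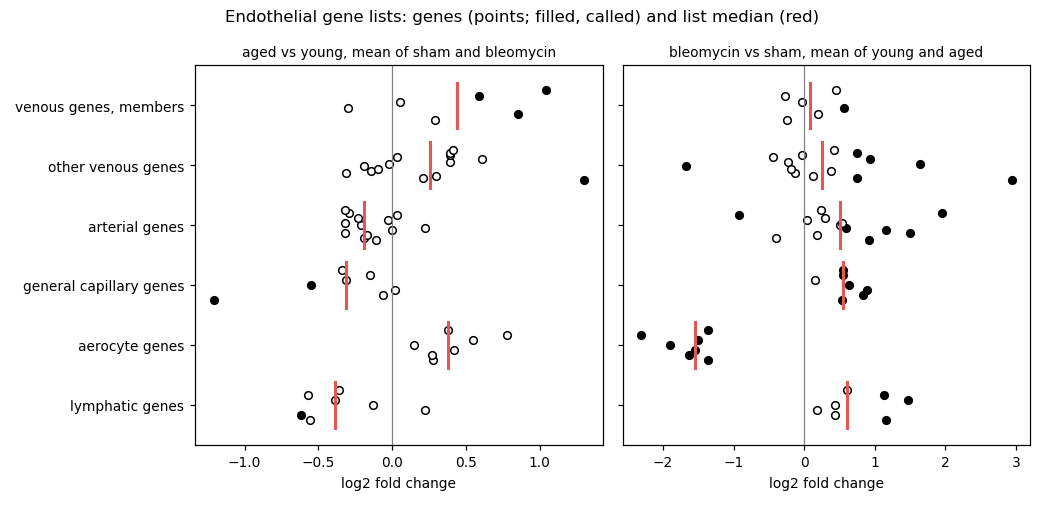
DESeq2 log2 fold change (horizontal axes) of every gene of 6 endothelial lists, averaged over injury for age (left) and over age for bleomycin (right), with filled points for called genes and list medians in red. The venous members have a median of 0.44 with age and 0.085 with bleomycin, and all 7 aerocyte genes lie below 0 with bleomycin.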

How the data were processed

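RNA of sorted mouse lung ECs was sequenced in 16 libraries. The authors aligned reads to mm10 with STAR 2.5.2b (per the submitters' processing notes) and counted them per gene with Subread featureCounts within MAPRSeq, and the deposited table holds raw counts and FPKM values made by the authors. Annotation, strand setting and treatment of multiply mapped reads are not given in the sources used here. The labels name a SMART-Seq v4 and Nextera kit, the study's methods a TruSeq kit. All libraries were fitted together with DESeq2 1.42.0 (R 4.3.3) by a Wald test with group as the term and Benjamini-Hochberg adjustment over all genes tested. edgeR 4.0.16 and limma 3.58.1 served as alternatives, and the scripts were tested on simulated data. Calls needed an adjusted p no higher than 0.05 and a log2 fold change no smaller than 0.5 in size. All 6 members were named. From each fixed list up to 3 called genes per comparison were eligible, those with the largest change among genes whose mean normalized count reached 50, and not all are printed. Per member the 3 most correlated genes were named, with that same minimum. Efnb2, Nr2f1, Slco2a1, Vegfc, Lyz2 and listed genes that were not called were named outside this rule, after their values were seen. Of 132 listed symbols, 1 was matched by identifier under an older name. The members and lists were chosen with earlier results of these data known. Depth varied 20.9 to 71.0 mega-counts, and the error shown is that between libraries.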

Additional observations from a re-analysis of the deposited data

How the results depend on the processing

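No paired analysis was possible because the groups share no replicate numbers. Leaving out each library in turn gave 0 to 3 members called in Aged Sham against Young Sham (0 without Aged Sham replicate 14), 0 to 1 in Young Bleo against Young Sham, 0 to 1 in Aged Bleo against Aged Sham, 0 to 1 in Aged Bleo against Young Bleo and 0 to 2 in the averaged bleomycin comparison. Under limma voom, limma-trend on log2(FPKM + 0.1) and limma-trend on log2(FPKM + 1) the number of members called was 0 in Aged Sham against Young Sham, in Young Bleo against Young Sham and in Aged Bleo against Young Bleo. Under edgeR it was 1 in the first of these and 0 in the other 2. In the averaged age comparison it was 0 with log2(FPKM + 1), a scale that understates changes of low genes. With log2(FPKM + 0.1) the median of all genes in Aged Sham against Young Sham moved from 0.021 to -0.12, and age differences on FPKM stand relative to that shift. Called members kept their direction in every setting.

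Only uncalled values changed sign. Without single libraries, Amigo2 ran from -0.30 to 0.57 in Aged Sham against Young Sham, from -0.52 to 0.35 in Aged Bleo against Aged Sham, from -0.21 to 0.18 in Aged Bleo against Young Sham, from -0.26 to 0.61 in the difference of responses and from -0.39 to 0.041 in the averaged bleomycin comparison. Slc6a2 in Aged Bleo against Aged Sham ran from -0.24 to 0.68. Nr2f2 ran from -0.075 to 0.14 in Aged Bleo against Young Sham, from -0.043 to 0.11 in the averaged age comparison and from -0.085 to 0.063 in the averaged bleomycin comparison. In the difference of responses, Prss23 ran from -0.53 to 0.002 and Bst1 from -0.059 to 0.24. On FPKM with pseudocounts of 0.1 and 1, Amigo2 in Aged Bleo against Young Sham was -0.007 and -0.0041, Nr2f2 in the averaged age comparison -0.025 and -0.018, and Nr2f2 in the averaged bleomycin comparison 0.048 and 0.028. Under limma voom the difference of responses of Bst1 was -0.016. The cause was not tested. Among the members Bst1 had the fewest counts (163 to 826 per library), and some listed genes, such as Nr2f1, had fewer.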
